A study of Homo sapiens with 28 samples.

Results

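P10 is a population of Kuramochi cells exposed for 9 days to 10 uM olaparib, called persister cells in the labels, and it was set against the untreated population C over all 105048 consensus peaks of an ATAC-seq experiment. The comparison was defined by the samples' labels and rests on 4 libraries, 2 of P10 and 2 of C, among 20 libraries with a column in the table of peak counts; the labels list 28 samples in all, and the other 8 were not analysed here. Kuramochi is an established epithelial ovarian cancer line, and all its populations here carry the same BRCA2-mutant genotype, so P10 and its controls share that defect. Besides P10 and C, 2 populations are used for contrast: P320, drug-naive cells exposed for 9 days to 320 uM, and T10, cells that had adapted to growth in 10 uM. Per the labels, C was sorted on CD24 and CD44, T10 was sorted for low CD24 and high CD44, and P10 and P320 come without a named sort, so exposure and sort cannot be told apart in P10 against C or against T10. Each library was made from about 50000 cells with the Omni-ATAC protocol. Nothing in the labels tells separate cultures from repeat preparations, so p-values measure the spread between these libraries, which may be technical.

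Olaparib blocks PARP enzymes, which mark single-strand breaks for repair, and traps them on DNA. Cells without functional BRCA2 cannot repair the resulting damage by homologous recombination, and most of them die; cells that survive a first exposure without inherited resistance are known as drug-tolerant persisters. ATAC-seq measures where the transposase Tn5 can insert into DNA, so a peak marks open chromatin, mostly promoters and enhancers, and says nothing by itself about how much RNA a gene makes. Among transcription factors that bind open chromatin under stress, AP-1, a dimer of FOS and JUN family proteins, and NF-kB, which drives inflammatory genes, are the best known.

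The promoters of 9 genes on which the results turn are printed here as RefSeq gives them on GRCh38.p14, 250 bases before to 50 after the gene's start, read on the gene's strand. Capitals mark matches on either strand to TGANTCA (AP-1), GGGCGG (GC box), ACAAAG (SOX) and TAATTA (homeobox); no matches of these letters overlap another marked motif in the promoters printed. AMT, TPPP and LRRK2 are the 3 largest gains of accessibility in P10 with a promoter sequence at hand. They lie at chr3:49422424-49422723 (minus strand), chr5:693303-693602 (minus strand) and chr12:40224747-40225046 (plus strand); the peak of AMT lies 799 bases beyond that start.
AMT: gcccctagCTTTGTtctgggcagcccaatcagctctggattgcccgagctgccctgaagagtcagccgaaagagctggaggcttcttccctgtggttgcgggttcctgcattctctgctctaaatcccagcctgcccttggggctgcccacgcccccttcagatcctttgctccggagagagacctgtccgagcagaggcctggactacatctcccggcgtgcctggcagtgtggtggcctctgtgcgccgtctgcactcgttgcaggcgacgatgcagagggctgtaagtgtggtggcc
TPPP: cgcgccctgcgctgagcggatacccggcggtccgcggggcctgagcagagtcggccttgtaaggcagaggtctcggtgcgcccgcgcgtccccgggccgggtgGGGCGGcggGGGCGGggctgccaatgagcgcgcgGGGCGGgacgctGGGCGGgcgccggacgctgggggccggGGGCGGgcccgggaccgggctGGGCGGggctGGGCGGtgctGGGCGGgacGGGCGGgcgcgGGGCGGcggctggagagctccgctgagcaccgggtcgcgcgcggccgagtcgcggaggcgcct
LRRK2: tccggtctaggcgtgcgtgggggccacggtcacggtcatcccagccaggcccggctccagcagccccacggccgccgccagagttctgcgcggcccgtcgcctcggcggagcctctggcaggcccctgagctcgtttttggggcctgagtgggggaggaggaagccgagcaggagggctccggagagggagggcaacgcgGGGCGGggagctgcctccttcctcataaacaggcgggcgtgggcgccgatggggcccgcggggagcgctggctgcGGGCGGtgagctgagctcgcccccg
CYP4B1, COL28A1 and OR2T2 are the 3 largest losses with such a sequence, at chr1:46798796-46799095 (plus), chr7:7535824-7536123 (minus) and chr1:248445387-248445686 (plus), and hold none of the 4 motifs.
CYP4B1: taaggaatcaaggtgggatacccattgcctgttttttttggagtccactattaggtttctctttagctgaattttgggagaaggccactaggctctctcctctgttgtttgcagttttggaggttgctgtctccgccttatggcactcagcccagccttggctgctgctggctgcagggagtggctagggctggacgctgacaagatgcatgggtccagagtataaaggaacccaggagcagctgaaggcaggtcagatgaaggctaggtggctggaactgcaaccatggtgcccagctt
COL28A1: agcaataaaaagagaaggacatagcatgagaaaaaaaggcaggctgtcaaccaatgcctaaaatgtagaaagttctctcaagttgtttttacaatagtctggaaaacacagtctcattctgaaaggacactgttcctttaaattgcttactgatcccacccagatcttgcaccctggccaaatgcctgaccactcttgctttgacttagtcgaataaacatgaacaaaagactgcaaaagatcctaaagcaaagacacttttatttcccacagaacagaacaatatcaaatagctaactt
OR2T2: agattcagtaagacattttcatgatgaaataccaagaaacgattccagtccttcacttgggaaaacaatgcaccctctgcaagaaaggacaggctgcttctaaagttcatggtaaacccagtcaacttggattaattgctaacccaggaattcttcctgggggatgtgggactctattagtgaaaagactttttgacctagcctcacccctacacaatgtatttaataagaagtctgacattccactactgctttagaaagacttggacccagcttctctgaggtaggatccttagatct
IL23A, NXPE2 and S100A12 are the 3 largest gains that hold the AP-1 letters when promoter GC content is taken into account, chosen after their values were seen. They lie at chr12:56338634-56338933 (plus), chr11:114678277-114678576 (plus) and chr1:153375572-153375871 (minus).
IL23A: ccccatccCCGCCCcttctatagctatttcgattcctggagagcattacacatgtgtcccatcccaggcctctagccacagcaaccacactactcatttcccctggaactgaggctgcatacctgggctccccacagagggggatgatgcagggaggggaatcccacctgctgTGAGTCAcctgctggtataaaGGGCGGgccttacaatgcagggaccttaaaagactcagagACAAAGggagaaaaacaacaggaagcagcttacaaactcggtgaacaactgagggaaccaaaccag
NXPE2: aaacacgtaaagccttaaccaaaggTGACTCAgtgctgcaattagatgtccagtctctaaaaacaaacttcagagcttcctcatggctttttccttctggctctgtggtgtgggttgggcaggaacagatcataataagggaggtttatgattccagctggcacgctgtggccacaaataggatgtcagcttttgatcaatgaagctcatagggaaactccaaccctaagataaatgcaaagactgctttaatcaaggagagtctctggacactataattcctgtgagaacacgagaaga
S100A12: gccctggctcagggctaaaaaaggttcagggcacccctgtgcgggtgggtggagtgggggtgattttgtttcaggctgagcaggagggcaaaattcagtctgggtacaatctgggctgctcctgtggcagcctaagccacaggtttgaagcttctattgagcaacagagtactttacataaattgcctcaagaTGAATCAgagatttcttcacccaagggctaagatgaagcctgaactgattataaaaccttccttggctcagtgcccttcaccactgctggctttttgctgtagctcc
The printed promoters differ in base composition as well as in motifs: TPPP has 83.0% GC and 10 GC boxes, LRRK2 74.7% and 2, while COL28A1 has 38.0% and OR2T2 41.7%.

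Total counts in peaks were 22184883 and 22437074 in the P10 libraries and 11347046 and 22218981 in the C libraries, within the range of 9627970 to 29699950 over the 20 libraries. A peak is counted at a gene start within 1 kb of a protein-coding gene's RefSeq start or, where no start was at hand, of either gene end. The class therefore holds some far ends of genes: 11961 genes had a peak by start and 2840 by either end. Peaks at gene starts held 33.3% and 33.1% of the counts in P10 and 28.1% and 32.5% in C, so the C libraries differed from each other more than the P10 libraries did. The chi-square between replicates per degree of freedom was 2.11 in P10 and 8.48 in C. Among the cell type markers, 5 of 6 epithelial genes had a peak (KRT7 had none), as did 6 of 6 Mullerian and serous lineage genes, against 2 of 5 blood, 1 of 4 endothelial, 0 of 3 hepatocyte and 2 of 3 neural genes. PTPRC and CD3E were among the blood genes without a peak. The summed level of the epithelial markers was 64.2 and 67.7 CPM (reads in the peak relative to all reads in peaks, scaled to a common library size) in P10 and 50.6 and 45.6 in C, that of the blood markers with a peak (CD14 and SPI1) 34.0 and 34.7 in P10 and 23.9 and 27.1 in C, and 0 of these markers was called in edgeR's quasi-likelihood test.

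The change of promoters in P10 followed their GC content. A set of 13155 peaks with a RefSeq gene start inside was ordered by the GC content of the promoter and divided into 10 groups of nearly equal size. The median log2 fold change of P10 over C was -0.31 in the group with the lowest GC (25.3 to 48.7%) and 0.82 in that with the highest (76.3 to 94.0%), and the share of peaks gained was 34.6% in the highest group. P320 over C had the same shape, with medians of -0.21 and 1.07, and T10 over C stayed between 0.12 and 0.19 in all 10 groups; these comparisons share the C libraries. Within single libraries, the promoters of high GC stood above those of low GC, relative to the mean over libraries, by 0.57 and 0.53 (log2) in P10 and 0.56 and 0.55 in P320, and lay below them, by -0.14 and -0.12, in C. Libraries of cells exposed for 9 days, for which no sort is named, therefore stood apart from the libraries with a named sort on this measure, and exposure, sort and preparation cannot be told apart in it. Genes named below are therefore also fitted with an offset where their peak holds a RefSeq start. This GC offset, added after seeing the data, removes the median change of promoters of like GC. Its value is given where it ends a call against C. A genome sequence for the other peaks was not used here, so they have no such value. A call given without a GC value is therefore not always one that the offset kept.

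**Figure D1:**
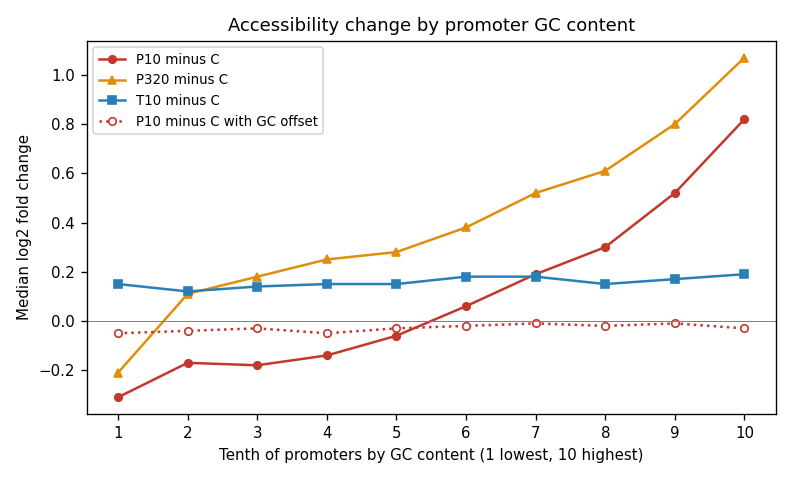
The x axis gives promoters in 10 groups from the lowest to the highest GC content and the y axis the median log2 fold change of the group. Filled symbols show P10, P320 and T10, each minus C, and open symbols P10 minus C with the GC offset; P10 runs between -0.31 and 0.82 and P320 between -0.21 and 1.07, while T10 stays between 0.12 and 0.19.

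P10 against C asks what chromatin differs after a short exposure to a dose that other populations adapted to. Of the 105048 peaks, 9789 (9.32%) were gained and 13428 (12.8%) were lost where a call needed an adjusted p under 0.05 and a change of at least 1 on the log2 scale in either direction (edgeR's quasi-likelihood test, Benjamini-Hochberg adjustment), together 22.1%, and 34775 passed on adjusted p alone. The losses lay away from gene starts. Of 89961 distal peaks, those not at a gene start, 9.25% were gained and 14.6% lost, whereas of 15087 peaks at gene starts 9.74% were gained and 1.76% lost. The median log2 fold change was -0.16 over distal peaks and 0.15 over peaks at gene starts. The median size was 1.44 among gained and -1.45 among lost peaks, and 1404 gained and 2318 lost peaks changed by at least 2. The balance of gains and losses depended on scaling: 42.2% of the calls were gains, but 25.8% when TMM factors came from gene-start peaks alone, 50.1% when the median of each 5 Mb window was removed and 52.5% with that offset and the replicate block. The median over all peaks was -0.10, and -0.26 with factors from gene-start peaks. Without C replicate 2 the calls fell to 5046 gained and 7753 lost, and without P10 replicate 2 to 6803 and 8613.

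Called peaks were uneven along the genome. Chromosome 22 had 15.1% of its peaks gained and 3.02% lost, chromosome 17 had 14.2% and 5.59%, and chromosome 16 had 14.0% and 5.07%; chromosome 4 had 7.76% gained and 19.0% lost and chromosome 6 had 6.50% and 17.5%. Over 573 windows of 5 Mb with at least 20 peaks, medians ran between -0.92, on chromosome 4 from 130 to 135 Mb, and 0.66, on chromosome 17 from 15 to 20 Mb, where 69 of 231 peaks were gained and 4 lost. The window on chromosome 8 from 20 to 25 Mb had 40 of 125 peaks gained and 1 lost. Removing the window medians left 10623 gained and 10566 lost peaks. By width, in 5 groups of nearly equal size, the share gained was 10.5%, 10.7%, 9.57%, 8.11% and 7.70% from the narrowest (174 to 753 bp) to the widest (1625 to 6145 bp), and the share lost 11.7%, 14.8%, 15.0%, 13.4% and 8.97%, highest in the middle groups.

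At genes, gains outnumbered losses. A gene was represented by the peak within 1 kb of its RefSeq start or, where no start was at hand, within 1 kb of either end, and 14801 genes had such a peak. Of the 13230 distinct peaks, 1221 (9.23%) were gained and 165 (1.25%) lost, with a median log2 fold change of 0.14. The 12 largest gains, from the largest down, were AMT, SLC18A1, TPPP, C3, LRRK2, SAA2, ZDHHC2, the peak of BEST1 and FTH1, OAS2, BMP8A, TUSC3 and IL23A. Of these, SLC18A1, C3, SAA2, ZDHHC2, BEST1, OAS2 and TUSC3 were placed by either gene end, as were some list members below. Peaks so placed need not be promoters.

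AMT, a subunit of the mitochondrial glycine cleavage system (peak chr3:49421299-49421674), had 3.18 and 3.84 CPM in P10, against 0.492 and 0.0943 CPM in C. The log2 fold change was 3.75 ± 0.76 (SE, adjusted p = 0.0013, edgeR), the largest among named genes, at a low level. SLC18A1, a vesicular monoamine transporter, had 3.79 and 3.36 CPM in P10 and 0.492 and 0.471 CPM in C, a change of 2.88 ± 0.54 (adjusted p = 0.00074, edgeR). TPPP, which promotes microtubule assembly, had 20.1 and 18.9 CPM in P10 and 3.28 and 2.45 CPM in C. Its change was 2.78 ± 0.24 (adjusted p = 3.8e-06, edgeR) and 1.85 with the GC offset, still called. LRRK2, a kinase known from Parkinson disease, had 2.43 and 2.22 CPM in P10, against 0 and 0.613 CPM in C, and changed by 2.67, or 2.22 with the GC offset. The C library that remains without C replicate 2 had no count there, so no fold is given for that setting. BMP8A, a BMP ligand (peak chr1:39490680-39492234), had 34.5 and 32.0 CPM in P10 and 7.47 and 6.88 CPM in C, a change of 2.22, or 1.45 with the GC offset, and was called under both.

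Of the largest gains, AMT, C3, SAA2, OAS2 and IL23A were more open in P10 than in both contrast populations. AMT had 0.988 and 0.483 CPM in P320 and 1.31 and 0.43 CPM in T10. P10 exceeded P320 there by 2.24 (adjusted p = 0.017) and T10 by 2.09 (adjusted p = 0.012), both from edgeR. The call of AMT against P320 ended without any 1 of the 4 libraries (1.82 to 2.84). C3, the central protein of the complement cascade (peak chr19:6720580-6721119), had 6.44 and 7.28 CPM in P10 and 1.64 and 0.566 CPM in C. Its values were 0.671 and 0.409 CPM in P320 and 1.53 and 0.391 CPM in T10. The log2 fold change was 2.70 ± 0.67 over C (adjusted p = 0.0051), 3.65 over P320 (adjusted p = 0.0014) and 2.93 over T10 (adjusted p = 0.0018), all from edgeR. The peak of SAA2, an acute-phase serum amyloid, which is shared with the SAA2-SAA4 readthrough, had 4.67 and 4.66 CPM in P10, against 0.903 and 0.660 CPM in C, 0.318 and 0.706 CPM in P320 and 0.874 and 0.274 CPM in T10. The P10 libraries lay above all libraries of the other 3 groups at both genes. OAS2, an interferon-induced oligoadenylate synthetase (peak chr12:112977772-112979307), had 22.0 and 19.0 CPM in P10 and 5.25 and 3.02 CPM in C, a change of 2.34 ± 0.29 (adjusted p = 3.9e-05, edgeR); it exceeded P320 by 2.28 and T10 by 1.77, both called. IL23A, a cytokine subunit made by activated myeloid cells, had 13.5 and 9.55 CPM in P10 and 3.28 and 1.98 CPM in C. It changed by 2.16, and by 2.25 with the GC offset, and exceeded P320 by 1.88 and T10 by 2.35, both called. Calls against C ended without C replicate 2 for C3 (2.06), SAA2 (2.36), IL23A (1.81) and TUSC3 (2.19), while OAS2 was called without any 1 of the 4 libraries. Against P320, SAA2 (2.71) was not called without P320 replicate 1, nor IL23A without P10 replicate 1 (1.61) or either P320 library (1.83 and 1.94).

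Of the other large gains, a wide peak between BEST1, a chloride channel, and FTH1, the heavy chain of the iron store ferritin (chr11:61961312-61964648), had the highest level, 157 and 142 CPM in P10 against 37.7 and 17.4 CPM in C, a change of 2.45 ± 0.28 (adjusted p = 2.3e-05, edgeR). Its level in P320 was 110 CPM in each library, and P10 over P320 was 0.44, not called. ZDHHC2, a palmitoyltransferase, had 6.09 and 5.67 CPM in P10 and 1.07 and 1.04 CPM in C (2.48). TUSC3, a subunit of the enzyme complex for N-glycosylation, had 2.29 and 3.01 CPM in P10 and 0.574 and 0.566 CPM in C (2.21). SLC18A1, ZDHHC2 and TUSC3 all lie on the short arm of chromosome 8, and each was still called with the window offset.

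**Figure D2:**
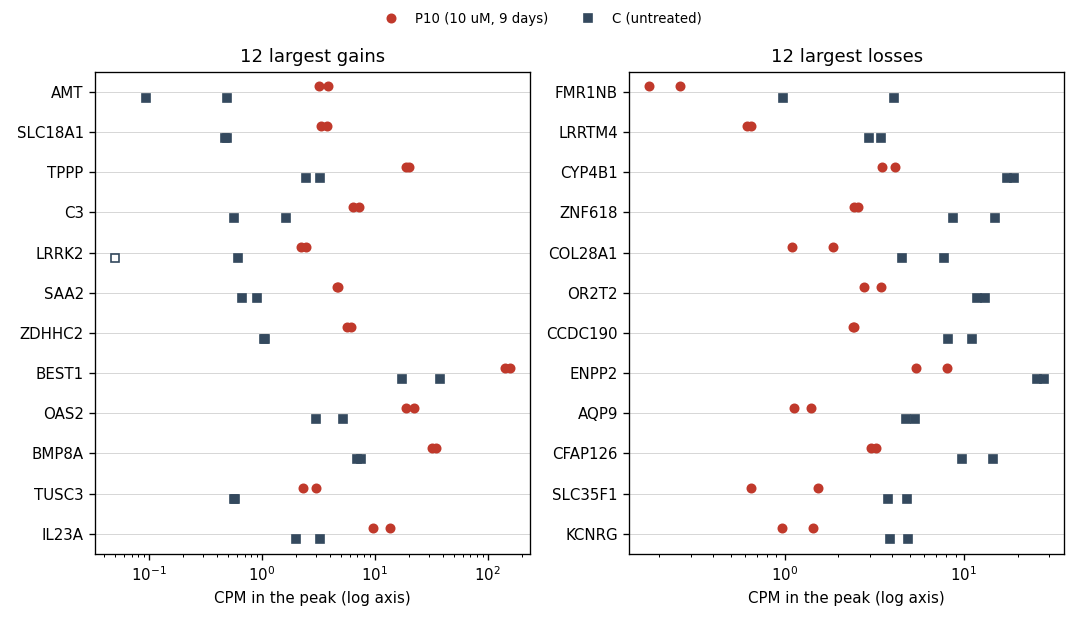
Each row is a gene and the log x axis gives CPM in its peak, with P10 libraries as circles and C libraries as squares; the left panel holds the 12 largest gains and the right panel the 12 largest losses. Both circles lie apart from both squares in every row, which the rule for naming required; the C library without a count at LRRK2 is drawn as an open square at 0.05 CPM.

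The 12 largest losses began with FMR1NB, at a low level. FMR1NB, LRRTM4, ZNF618, ENPP2 and SLC35F1 were placed by either gene end, so their peaks need not be promoters. FMR1NB, a cancer-testis antigen on chromosome X, had 0.176 and 0.262 CPM in P10 and 0.985 and 4.1 CPM in C. The change was -3.54, but the C libraries differed widely, and without C replicate 2 it was -2.13 and not called. CYP4B1, a cytochrome P450 monooxygenase (peak chr1:46798675-46799920), had 3.48 and 4.14 CPM in P10 and 17.4 and 19.0 CPM in C, a log2 fold change of -2.25 ± 0.49 (adjusted p = 0.0021, edgeR) and -2.14 with the GC offset. ENPP2, which encodes autotaxin, the enzyme that makes lysophosphatidic acid, fell to 8.07 and 5.41 CPM in P10, against 25.6 and 28.0 CPM in C (-1.99 ± 0.27, adjusted p = 7.6e-05, edgeR); T10 had 36.1 and 40.8 CPM. LRRTM4, a synaptic adhesion protein, changed by -2.32, the zinc-finger gene ZNF618 by -2.24, the collagen gene COL28A1 by -2.05, the olfactory receptor OR2T2 by -2.01 and CCDC190 by -2.0. AQP9, a channel for water and glycerol, changed by -1.98, the ciliary gene CFAP126 by -1.97, SLC35F1 by -1.95 and KCNRG, a potassium channel regulator, by -1.87. CYP4B1, COL28A1, OR2T2, CCDC190 and CFAP126 have a promoter sequence, and all 5 were still called with the GC offset, at -2.14, -1.67, -1.63, -1.87 and -1.78. Calls ended without C replicate 2 for ZNF618 (-1.80) and COL28A1 (-1.60), without P10 replicate 1 for COL28A1 (-1.72), and for AQP9 without C replicate 2 (-1.90) or either P10 library (-2.15 and -1.83).

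With the GC offset, 499 of the 13155 promoter peaks were gained (3.79%) and 183 were lost (1.39%), against 1197 (9.10%) and 290 (2.20%) without it. Of 1188 promoter peaks gained in the fit over all peaks, 412 (34.7%) were called gained with the offset, and of 289 lost, 135 (46.7%) were called lost. The median promoter GC was 74.1% among the 1188 and 64.7% over all. Of the genes gained in both fits, the 8 largest with the offset were, beside IL23A and LRRK2, NXPE2, MEFV, S100A12, FCRLA, COL7A1 and SPIRE1. MEFV, which encodes pyrin, a sensor of the inflammasome, had 20.7 and 21.8 CPM in P10 and 7.63 and 2.31 CPM in C, a change of 2.16, or 2.22 with the offset. S100A12, a calcium-binding protein of neutrophils, had 10.3 and 12.6 CPM in P10 and 4.02 and 1.32 CPM in C (2.16, or 2.22 with the offset). FCRLA, an Fc receptor-like protein of B cells, had 17.2 and 19.1 CPM in P10 and 6.48 and 4.1 CPM in C (1.80, or 2.18). COL7A1, the collagen of anchoring fibrils, had 19.2 and 21.7 CPM in P10 and 5.58 and 4.57 CPM in C (2.02, or 2.07). S100A12 was not called without C replicate 2 (1.51) or P10 replicate 2 (1.99), and NXPE2 not without C replicate 2 (1.36). MEFV, FCRLA, COL7A1 and SPIRE1 were called without any 1 of the 4 libraries.

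AP-1 motifs were more frequent in promoters gained in P10 than in promoters of like GC content. TGANTCA stood in 6.71% of the 13155 promoters, in 11.7% of the 1188 gained, in 9.00% of the 289 lost and in 27.9% of the 499 gained with the GC offset. AP-1 letters are rare in GC-rich promoters, so the shares were set beside those of promoters of like GC. In the 3 groups of lowest GC, 92 of 239 gained promoters (38.5%) held the motif, against 26 of 259 lost (10.0%) and 540 of all 3947 (13.7%). In the lowest group alone, 38 of 90 gained and 254 of 1316 of all held it, or 42.2% and 19.3%. In the 7 groups of higher GC the shares were 4.95% of 949 gained and 3.73% of all 9208. The share among gained promoters of the 3 low-GC groups lay between 31.6% without C replicate 2 (48 of 152) and 38.3% when each library was left out, and was 41.8% with factors from gene-start peaks and 36.2% with the window offset. These are shares of letters in a window of 300 bases and were not tested, and a match is not a bound site. The IL23A, NXPE2 and S100A12 promoters printed above hold 1 such match each, in capitals.

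**Figure D3:**
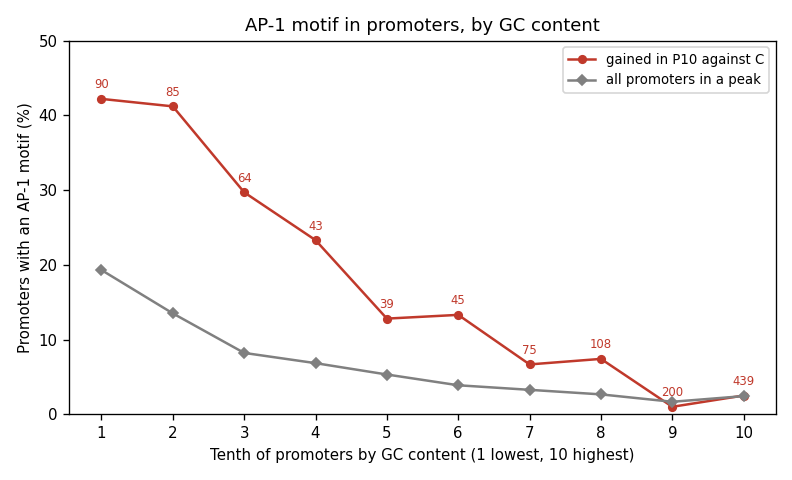
The x axis gives promoters in 10 groups from the lowest to the highest GC content and the y axis the percentage that hold TGANTCA on either strand. Circles show promoters gained in P10 against C, with their number above, and diamonds all promoters in a peak; the share is 42.2% of 90 gained and 19.3% of all in the lowest group, and 2.51% and 2.43% in the highest.

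Shares of other motifs are given over all promoters and, for SOX and homeobox letters, also in the low-GC groups. The SOX letters ACAAAG stood in 12% of all promoters, 9.09% of gained and 26.3% of lost ones, and in the 3 low-GC groups in 20.9% of gained, 28.2% of lost and 21.2% of all. The homeobox letters TAATTA stood in 2.52% of all, 1.01% of gained and 10.4% of lost promoters, and in the low-GC groups in 3.77%, 11.6% and 6.69%. The GC box GGGCGG stood in 64.5% of all, 75.1% of gained and 14.2% of lost promoters, and in 38.1% of those gained and 40.4% of those lost with the GC offset. The NF-kB letters, GGGA and CC held apart by 4 bases, stood in 30.6% of all, 38.5% of gained and 27.5% of promoters gained with the offset. GATA letters (AGATAA) stood in 5.62% of all, 3.96% of gained and 17.6% of lost promoters, and TEAD letters (GGAATG) in 12.4%, 10.4% and 19.7%. RUNX letters (TGTGGTT) stood in 3.22% of all, 2.86% of gained and 6.92% of lost promoters. ETS letters (CCGGAAG) stood in 15.2% of all, 9.18% of gained and 5.54% of lost promoters, and the E-box (CACGTG) in 9.09%, 7.41% and 3.81%. The CCAAT box, by those letters, stood in 34.6% of all, 25.5% of gained and 41.5% of lost promoters. Of 19 motifs searched, the CRE, STAT, E2F, YY1, CTCF, EGR and WT1, interferon and NRF2 motifs had shares of 0.673% to 40.6% in gained promoters, against 1.16% to 43.2% in all.

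In the 25 gene lists, 484 of 540 genes had a peak, and 49 (10.1%) were gained and 2 (0.413%) lost, close to the 9.23% and 1.25% over all peaks standing for genes, where the median log2 fold change was 0.14. The GC offset applies to the members with a RefSeq start inside their peak. Among members gained against C, CDKN1C, OAS2, JUNB, ABCB4, BMP2, FGFR1, CRIM1, TEAD1, SFRP1, HES1, FASN, ITGB2 and CLDN5 have no value with it. Nor has KLK8, which was lost. Whether their calls would hold with the offset was not tested.

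**Figure D4:**
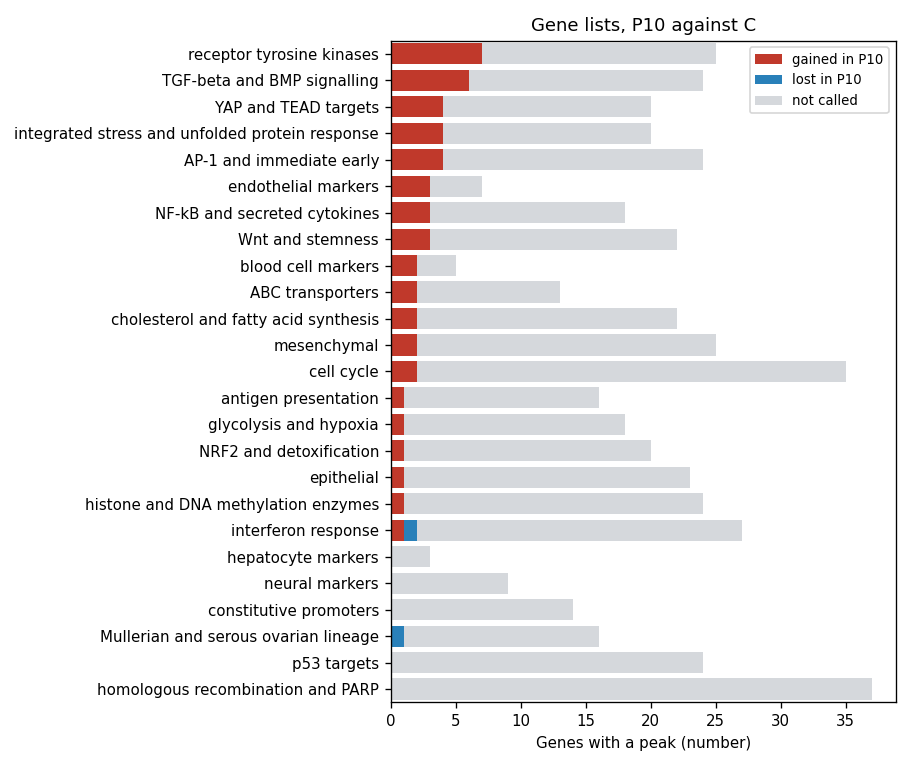
Each bar is a gene list and the x axis counts its genes with a peak, divided into genes gained in P10, lost in P10 and not called in edgeR's test against C. Receptor tyrosine kinases have 7 of 25 gained and TGF-beta and BMP signalling 6 of 24, and no bar has more than 1 loss.

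Receptor tyrosine kinases had the highest number of gains among the lists, 7. Of these, 6 have a value with the GC offset and FGFR1 has none. With the offset the list had 1 gain, and the NF-kB and cytokine list had 3. Of 25 receptor tyrosine kinases, which relay growth factors into the cell, 7 were gained (FGFR1, FGFR3, AXL, IGF1R, INSR, EPHB2 and ROR2) and 0 lost, with a median of 0.65, or 0.16 over its 23 members with the GC offset, with which AXL was the single gain. AXL, a receptor for GAS6 that is also counted among YAP targets, had 49.3 and 47.3 CPM in P10 and 22.0 and 23.5 CPM in C, a change of 1.08 ± 0.16 (adjusted p = 9.8e-05, edgeR), or 1.20 with the GC offset, and 0.97, not called, with the window offset. EPHB2, an ephrin receptor, had 27.0 and 26.9 CPM in P10 and 13.7 and 12 CPM in C; its change of 1.07 became 0.14 with the GC offset. With the GC offset FGFR3 was 0.23, IGF1R 0.22, INSR 0.40 and ROR2 0.10, and with the window offset FGFR3 (0.88) and ROR2 (1.00) were not called. Scaled on gene-start peaks, AXL (0.92), EPHB2 (0.90), FGFR1 (0.96) and ROR2 (0.89) were not called, nor was EPHB2 without C replicate 2 (0.97) or ROR2 without P10 replicate 1 (0.99) or C replicate 1 (1.00).

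Of 24 genes of TGF-beta and BMP signalling, 6 were gained: the ligands TGFB1 and BMP2, the receptor TGFBR1, the latent TGF-beta binding protein LTBP2, the decoy receptor BAMBI and SKIL, which represses SMAD proteins. TGFBR1 had 31.9 and 30.2 CPM in P10 and 9.77 and 13.1 CPM in C, a change of 1.43 ± 0.23 (adjusted p = 0.00023, edgeR), and 1.08 with the GC offset. SKIL had 52.8 and 49.6 CPM in P10 and 19.0 and 16.8 CPM in C (1.52), and 0.58, not called, with the GC offset. LTBP2 was also called with the offset, at 1.23. The median of the list was 0.36. Over its 21 members with a GC-offset value it was 0.37, or 0.22 with the offset. TGFB1, at 1.00, was not called without P10 replicate 1 (0.98) or C replicate 2 (0.92), when scaled on gene-start peaks (0.83), or with the window offset (0.89) or the GC offset (0.24); BAMBI (1.16) was 0.22, not called, with the GC offset.

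Of 20 YAP and TEAD targets, 4 were gained: AXL, CRIM1, FJX1 and TEAD1. CRIM1, a transmembrane binder of growth factors, had 27.6 and 28.1 CPM in P10 and 9.68 and 12.4 CPM in C (1.32 ± 0.19, adjusted p = 1e-04, edgeR). The best known targets CCN1 and CCN2 did not pass the call, at -0.58 and -0.93. FJX1 (1.09) was not called without P10 replicate 1 (0.91), with gene-start scaling (0.93) or with the GC offset (0.72). Of 22 Wnt and stemness genes, 3 were gained, SFRP1, a secreted Wnt antagonist, NOTCH1 and its target HES1. NOTCH1 had 32.9 and 34.4 CPM in P10 and 15.3 and 16.6 CPM in C (1.07), and 0.30 with the GC offset, where it was not called; HES1 had 35.7 and 31.3 CPM in P10 and 14.5 and 18.4 CPM in C (1.02). With factors from gene-start peaks 0 of the 3 was called, HES1 was not called without P10 replicate 1 (0.92) or C replicate 1 (0.86), and with the window offset NOTCH1 (0.63) and SFRP1 (0.84) were not called. SFRP1 had 0.94 without P10 replicate 1, 1.65 without C replicate 1 and 0.62 without C replicate 2.

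Stress transcription factors gained at a few members. Of 24 AP-1 and immediate early genes, 4 were gained, FOSL1, JUNB, JUND and KLF2, and the median was 0.38. Over the 19 members with a GC-offset value it was 0.32, or 0.10 with the offset. FOSL1, a FOS family subunit of AP-1 whose peak is shared with CCDC85B, had 63.9 and 56.8 CPM in P10 and 24.3 and 26.8 CPM in C (1.24 ± 0.19, adjusted p = 0.00014, edgeR), or 0.96, not called, with the GC offset. KLF2, a zinc-finger factor, had 15.3 and 9.85 CPM in P10 and 3.04 and 3.30 CPM in C (1.98), or 1.04 with the offset, still called. FOS (0.10), JUN (-0.29), EGR1 (0.08) and MYC (-0.12) did not pass. JUND (1.12) was not called without P10 replicate 2 (0.98) or C replicate 1 (0.87), with gene-start scaling (0.98), the window offset (0.92) or the GC offset (0.36). Of 20 genes of the integrated stress and unfolded protein response, 4 were gained, TRIB3, VLDLR, ERN1 and CEBPB, with a median of 0.03, which was -0.11 with gene-start scaling, where 0 was gained. CEBPB, a transcription factor of stress and acute-phase genes, had 52.3 and 50.9 CPM in P10 and 21.7 and 27.6 CPM in C (1.06), and VLDLR, a lipoprotein receptor, 56.0 and 60.0 CPM in P10 and 29.3 and 28.4 CPM in C (1.01). With the GC offset 0 of the 4 was called (0.51 to 0.70), and with the window offset TRIB3 (0.80) was not. CEBPB (0.90) and ERN1 (0.89) were not called without C replicate 1, VLDLR (0.96) and ERN1 (0.95) not without P10 replicate 2, and VLDLR (0.99) not without C replicate 2.

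Few immune genes passed the call, though the NF-kB and cytokine list lay higher as a whole. Of its 18 genes, the chemokines CXCL1 and CXCL2 and the cytokine IL1B were gained and 0 lost. The median was 0.67, beside 0.14 over all peaks standing for genes. Over its 15 members with a GC-offset value it was 0.72, or 0.69 with the offset. Medians of the 10 GC groups of promoters ran from -0.05 to -0.01 with the offset. At an unadjusted p under 0.05 in edgeR's test, 10 of the 18 were higher in P10 and 0 lower. By the same count 16 of 25 receptor tyrosine kinases and 11 of 24 AP-1 and immediate early genes were higher and 0 lower. The pattern is therefore not particular to this list, and the share over all peaks standing for genes at that threshold is not given here. CXCL1 had 21.8 and 16.6 CPM in P10 and 8.78 and 7.17 CPM in C (1.28 ± 0.21, adjusted p = 0.00029, edgeR), or 1.17 with the offset. CXCL2 had 10.9 and 13.1 CPM in P10 and 5.33 and 6.32 CPM in C (1.03), or 0.98, not called, with the offset, with which CXCL8 was gained (1.27). IL1B had 5.25 and 4.97 CPM in P10 and 2.71 and 2.07 CPM in C (1.11), or 1.48 with the offset. Over all 103 peaks nearest to these genes, 31.1% were gained and 2.91% lost, beside 9.32% and 12.8% over all peaks. IL1B was not called without P10 replicate 1 (1.07), P10 replicate 2 (1.14) or C replicate 2 (0.91), and CXCL2 not without P10 replicate 2 (0.89) or C replicate 1 (0.93). With factors from gene-start peaks IL1B (0.93) and CXCL2 (0.89) were not called and CXCL1 was the gain. Of 27 interferon response genes, OAS2 was gained and IFI44 lost, and 25 were not called. IFI44, an interferon-induced cytoplasmic protein, fell to 12.2 and 10.5 CPM in P10, against 24.9 and 33.1 CPM in C (-1.36 ± 0.22, adjusted p = 0.00026, edgeR); it was not called with the window offset (-0.94) or the GC offset (-0.98). Of 87 peaks nearest to interferon genes 29.9% were gained and 5.75% lost. Of 16 antigen presentation genes, HLA-F, a non-classical HLA class I gene, was the gain, with 19.4 and 19.7 CPM in P10 and 6.65 and 9.43 CPM in C (1.27, or 1.39 with the GC offset). Of 54 peaks nearest to antigen presentation genes 27.8% were gained and 0% lost.

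Repair genes and p53 targets gave no call. Of 37 genes of homologous recombination and PARP, 0 were gained and 0 lost in edgeR's test, with a median of -0.27, and with gene-start scaling 1 was lost. At an unadjusted p under 0.05, 5 were higher and 9 lower in P10, and DESeq2 called 0. BRCA2, whose peak is shared with ZAR1L, had 25.0 and 26.7 CPM in P10 and 29.5 and 39.8 CPM in C (-0.42 ± 0.22, adjusted p = 0.14, edgeR). PARP1, the target of olaparib, had 31.7 and 37.4 CPM in P10 and 20.9 and 27.6 CPM in C (0.51 ± 0.21, adjusted p = 0.076, edgeR). SLFN11, which blocks stressed replication forks, had 3.88 and 2.66 CPM in P10 and 1.97 and 1.79 CPM in C (0.80, adjusted p = 0.14, edgeR). Of 24 p53 targets, 0 were gained or lost in edgeR's test, with a median of 0.09, or -0.05 with gene-start scaling; 5 were higher and 3 lower in P10 at an unadjusted p under 0.05, DESeq2 called 0, and 1 was gained with the window offset. CDKN1A, which encodes the p21 inhibitor of cell division, had 37.3 and 34.1 CPM in P10 and 16.4 and 23.2 CPM in C; its change of 0.84 ± 0.21 (adjusted p = 0.0058, edgeR) passed on p but not on size, was 1.12 and called without C replicate 2, and was 0.36 with the GC offset. MDM2 had 17.9 and 18.0 CPM in P10 and 13.5 and 20.9 CPM in C (0.05), and the groups overlapped. Of 35 cell cycle genes, CCNE1 and CDKN1C were gained. CCNE1, cyclin E1, had 39.5 and 35.4 CPM in P10 and 16.1 and 16.3 CPM in C (1.21), or 0.27, not called, with the GC offset, and CDKN1C, an inhibitor of cyclin-dependent kinases, 18.5 and 17.9 CPM in P10 and 4.51 and 6.03 CPM in C (1.77).

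The sort markers and the drug pump moved little. CD24 had 19.1 and 17.9 CPM in P10 and 10.4 and 15.0 CPM in C (0.53 ± 0.20, adjusted p = 0.050, edgeR). CD44 had 20.1 and 19.1 CPM in P10 and 14.6 and 13.8 CPM in C (0.47 ± 0.23, adjusted p = 0.12, edgeR). Neither passed the call, and P10 lay above C in both libraries at both genes. ABCB1, the efflux pump for olaparib and many other drugs, had 6.04 and 5.49 CPM in P10 and 4.35 and 2.88 CPM in C (0.70 ± 0.25, adjusted p = 0.037, edgeR), not called; it was called with the window offset, at 1.32, and without C replicate 1, at 1.00. Of 13 ABC transporters, ABCC4, a pump of nucleotide analogues (1.07), and ABCB4, a phospholipid pump (1.04), were gained. With factors from gene-start peaks neither was called (0.91 and 0.87), with the GC offset ABCC4 was not (0.70), and ABCB4 was not without either P10 library (1.07 and 1.01) or without C replicate 2 (0.77); the window offset gave it 1.66.

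Lineage, epithelial and mesenchymal genes changed at few members. Of 16 Mullerian and serous lineage genes, 0 were gained and KLK8, a kallikrein protease, was lost, with 18.9 and 20.4 CPM in P10 and 41.1 and 39.9 CPM in C (-1.04 ± 0.20, adjusted p = 0.00080, edgeR). PAX8 (-0.19), WT1 (0.32), MECOM (0.44) and SOX17 (0.69), transcription factors of the lineage, did not pass. Of the 147 peaks nearest to lineage genes, 3 (2.04%) were gained and 29 (19.7%) lost, beside 9.32% and 12.8% over all peaks. Of 23 epithelial genes GRHL1, a grainyhead factor, was gained (1.52, or 0.75, not called, with the GC offset), and of 25 mesenchymal genes FN1, which encodes fibronectin (1.21), and TWIST2, a factor of epithelial-mesenchymal transition (1.02). Of 206 peaks nearest to mesenchymal genes 15.5% were gained and 3.40% lost. KLK8 was not called with the window offset (-0.95), with factors from distal peaks (-0.99), with only P10 and C in the fit (-0.97) or without P10 replicate 1 (-0.99). TWIST2 was not called with gene-start scaling (0.85), the window offset (0.87) or the GC offset (0.89), nor without P10 replicate 2 (1.00) or C replicate 2 (0.88), and FN1 was not with the GC offset (0.96).

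Metabolic lists had 1 or 2 gains each. Of 22 genes of cholesterol and fatty acid synthesis, SREBF1, the master factor of lipid synthesis, had 41.3 and 39.8 CPM in P10 and 19.0 and 20.2 CPM in C (1.05), and FASN, fatty acid synthase, 63.6 and 54.7 CPM in P10 and 24.3 and 24.8 CPM in C (1.27); both lie on chromosome 17, and neither was called with the window offset (0.38 and 0.87). SREBF1 was not called with gene-start scaling (0.89) or the GC offset (0.77) either. BNIP3, a mitophagy receptor, was the gain among 18 glycolysis and hypoxia genes (1.52, or 0.59, not called, with the GC offset), ALDH1A3, an aldehyde dehydrogenase, that among 20 NRF2 and detoxification genes (1.51, or 0.57, not called), and NSD1, a histone methyltransferase, that among 24 histone and DNA methylation enzymes (1.18, or 0.61, not called). ALDH1A3 was also not called without C replicate 2 (1.16), nor NSD1 with the window offset (0.96). Of 14 constitutive promoters 0 were gained or lost by edgeR or DESeq2. At an unadjusted p under 0.05 in edgeR's test, 1 was higher and 6 lower in P10. With the window offset 1 was lost, and with gene-start scaling 2. The median was -0.12. Over the 11 members with a GC-offset value it was -0.52, or -0.46 with the offset.

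Genes used as markers of other cells were among the gains. Of 5 blood cell genes with a peak, RUNX3, a Runt factor of lymphocytes, and ITGB2, a leukocyte integrin, were gained. ITGB2 had 28.5 and 24.3 CPM in P10 and 9.44 and 6.6 CPM in C (1.74 ± 0.22, adjusted p = 4.4e-05, edgeR), and RUNX3 28.9 and 27.0 CPM in P10 and 9.85 and 7.26 CPM in C (1.72), or 0.95, not called, with the GC offset. Of the blood genes, 7 had no peak within 1 kb, among them PTPRC, CD3E, MS4A1, ITGAM, GATA1 and LYZ. Of 7 endothelial genes, FLT1, CLDN5 and ERG were gained (1.13, 1.06 and 1.24), and PECAM1, CDH5 and TEK had no peak; with gene-start scaling 0 of the 3 was called. CLDN5 and ERG were also not called without C replicate 2 (0.81 and 1.10) or P10 replicate 2 (1.04 and 1.21), nor FLT1 (0.88) and CLDN5 (0.61) with the window offset, nor FLT1 (0.63) and ERG (0.47) with the GC offset. Of 3 hepatocyte and 9 neural genes 0 were called by edgeR or DESeq2, 2 neural genes were higher in P10 at an unadjusted p under 0.05, and 1 neural gene was gained with the window offset.

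Among distal peaks, the gained ones with the smallest p lay on several chromosomes. A peak on chromosome 10 with no protein-coding gene within 50 kb (chr10:29946864-29947904) had 20.2 and 20.6 CPM in P10, against 3.53 and 3.06 CPM in C and 4.20 and 4.24 CPM in P320 (2.63 over C, or 2.81 with the GC offset, and 2.27 over P320). That peak holds a RefSeq gene start, though none of a protein-coding gene placed here, and so has a GC value and may be a promoter. A peak 16788 bp from MB, which encodes myoglobin (chr22:35588932-35589976), had 22.6 and 23.3 CPM in P10 and 4.19 and 2.50 CPM in C (2.82), and a peak 307 bp from C11orf68 (chr11:65915051-65916503) 41.4 and 43.6 CPM in P10 and 9.03 and 7.36 CPM in C (2.38). P320 had 35.5 and 37.2 CPM at that last peak, and P10 over P320 was 0.23, not called. These 3 peaks were called without any 1 of the 4 libraries and with the window offset.

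Of the lost distal peaks, 2 with the smallest p lay within SOX5, a transcription factor of the SOX family. The peak chr12:23553314-23554364 fell to 6.53 and 7.54 CPM in P10, against 39.1 and 37.4 CPM in C (-2.44 ± 0.19, adjusted p = 3.8e-06, edgeR), with 9.21 and 10.1 CPM in P320 and 46.1 and 48.8 CPM in T10. The peak chr12:24113597-24114885 fell to 28.2 and 24.7 CPM in P10, against 139 and 143 CPM in C (-2.41). A peak on chromosome 9 with no protein-coding gene within 50 kb (chr9:108137792-108139136) had 1.72 and 1.53 CPM in P10 and 16.5 and 27.5 CPM in C (-3.76), and one within the cadherin gene CDH10 (chr5:24570484-24572231) 0.838 and 0.523 CPM in P10 and 6.07 and 7.31 CPM in C (-3.29). P10 over P320 was -0.46 and -0.35 at the SOX5 peaks, not called, and -2.26 and -1.99, both called, at the other pair.

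Counted by nearest gene within 50 kb, SOX5 had the most losses: 54 of its 141 peaks were lost (38.3%) and 0 gained, with a median of -0.99. Over all peaks 12.8% were lost and 9.32% gained. The summed level of all 141 peaks was 3699 and 3543 CPM in P10, against 7482 and 6088 CPM in C, 3893 and 3790 CPM in P320 and 7672 and 5895 CPM in T10, so P10 and P320 lay below both other groups. Peaks fell along the whole region rather than at a few sites, and with the window offset, which removes a shift shared by the 5 Mb around, 14 were lost and 2 gained. PTPRD, a receptor phosphatase, had 25 of 73 peaks lost (34.2%), PARD3B, a polarity gene, 22 of 54 (40.7%), and SEMA3A, a guidance cue, 21 of 51 (41.2%). ZFPM2, a cofactor of GATA factors, had 20 of 49 lost (40.8%) and ITPR2, a calcium channel, 19 of 65 (29.2%). In each of these 0 to 2 peaks were gained. With the window offset these losses were 11, 12, 7, 8 and 7, and with each library left out they ran from 12 to 23, 11 to 23, 10 to 24, 15 to 20 and 10 to 20. SOX5 had 32 lost without C replicate 1, 59 without C replicate 2, 37 without P10 replicate 1 and 34 without P10 replicate 2. The lowest counts came without C replicate 2 for PTPRD, SEMA3A and ZFPM2, without P10 replicate 1 for PARD3B and without P10 replicate 2 for ITPR2, which had 11 without C replicate 1. Without P10 replicate 2, PTPRD, PARD3B and SEMA3A had 13 each, and PARD3B also had 13 without C replicate 2. SEMA3A had summed levels of 184 and 170.4 CPM in P10 and 268 and 319.7 CPM in C.

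The most gains lay near KCNMA1, a calcium-activated potassium channel, with 15 of 53 peaks gained and 3 lost, followed by ABTB2 (11 of 29), NAV2 (11 of 75), TNIP1 (10 of 14), FRMD4A (9 of 46) and ZNF469 (8 of 16). TNIP1, an inhibitor of NF-kB signalling, had the highest share, 71.4%. Its summed level was 258 and 248 CPM in P10, against 123 and 106 CPM in C, 151 and 146 CPM in P320 and 104 and 94.2 CPM in T10. At its start the log2 fold change was 0.87, not called, while peaks 4.8 kb before the start and 12.4 kb after it changed by 2.40 and 2.36. The 10 gains were also 10 with the window offset and were 4 without C replicate 2. For the other 5 genes the gains without C replicate 2 were 5, 7, 7, 5 and 6, KCNMA1 had 23 without C replicate 1, and ZNF469 had 4 with the window offset.

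**Figure D5:**
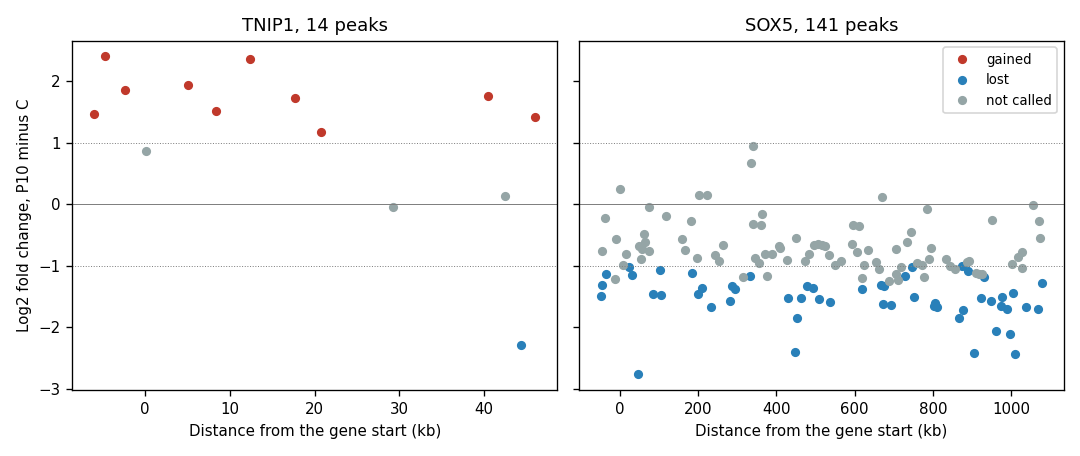
Each point is a peak, with its distance from the gene's start in kb on the x axis and the log2 fold change of P10 minus C on the y axis; the dotted lines mark changes of 1. At TNIP1 10 of 14 peaks are gained and 1 lost, and at SOX5 54 of 141 are lost and 0 gained. Over all peaks 9.32% are gained and 12.8% lost.

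P10 against P320 asks how the dose within the 9 days matters. The levels compared are those of P10 and P320 alone, but the C libraries, like all 10 groups, enter the shared estimate of the spread behind its p-values. Over all peaks 10168 (9.68%) were gained and 4303 (4.1%) lost in P10. With any 1 of the 4 libraries left out, 3938 to 5848 were gained and 1787 to 2191 lost. Gains made up 70.3% of the calls, and 90.3% with factors from gene-start peaks (15061 gained and 1609 lost), where the median over all peaks was 0.25 in place of -0.08. Peaks at gene starts held 39.4% and 38.6% of the counts in P320, against 33.3% and 33.1% in P10. Whether this difference bears on the excess of gains was not tested. Among peaks standing for genes 172 (1.30%) were gained and 55 (0.416%) lost. The 12 largest gains over P320, named after their values were seen and where P10 or P320 averaged 2 CPM or more, were TNIP3, an inhibitor of NF-kB (3.95), C3 (3.65), SAA2 (3.18), UBD, a ubiquitin-like protein induced by cytokines (2.87), TMIGD3 (2.81), LAPTM5, a lysosomal protein of leukocytes (2.81), SBSN (2.74), PDZK1IP1 (2.49), FCRLA (2.45), FFAR2, a fatty acid receptor of neutrophils (2.40), FBXO39 (2.36) and DHX58, a regulator of viral RNA sensing (2.35). PDZK1IP1 had 41.7 and 46.4 CPM in P10, against 7.69 and 8.03 CPM in P320, 17.4 and 10.7 CPM in C and 3.5 and 2.38 CPM in T10. LAPTM5 had 9.08 and 11.5 CPM in P10 and 1.66 and 1.26 CPM in P320, and DHX58 10.3 and 11.4 CPM in P10 and 2.33 and 1.89 CPM in P320. Calls ended without P320 replicate 1 for SAA2 (2.71), TMIGD3 (2.64), SBSN (2.62), FFAR2 (2.26) and FBXO39 (2.09), and without P320 replicate 2 for TNIP3 (3.41), UBD (2.62) and SBSN (2.85); C3, LAPTM5, PDZK1IP1, FCRLA and DHX58 were called without any 1 of the 4 libraries.

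In the lists, P10 exceeded P320 at IL1B (2.35), CXCL8 (1.67), IL32 (1.64) and BIRC3 (1.00) of 18 NF-kB and cytokine genes, at OAS2 (2.28) and OAS1 (1.04) of the interferon genes, and at ITGB2 (1.80) and CSF1R (1.07) of the blood genes. PRSS8, an epithelial serine protease, exceeded P320 by 1.12, a call that ended without any 1 of the 4 libraries. IFI27, an interferon-induced mitochondrial protein, was lower in P10 than in P320 (-1.20), and was not called with factors from gene-start peaks (-0.87). IL1B had 5.25 and 4.97 CPM in P10. ITGB2 had 28.5 and 24.3 CPM in P10, against 7.06 and 8.10 CPM in P320. IL1B, OAS2 and ITGB2 were called without any 1 library, whereas IL32 and CSF1R were not called without any 1 of the 4, CXCL8 not without either P320 library (1.64 and 1.69), BIRC3 not without P10 replicate 2 (0.86) or P320 replicate 2 (0.91), and OAS1 not without either P10 library (1.13 and 0.95) or P320 replicate 1 (0.73). Among receptor tyrosine kinases, TGF-beta, AP-1, stress, Wnt and YAP genes 0 were called in either direction in edgeR's test of P10 against P320. At an unadjusted p under 0.05, 0 or 1 member of each list was higher in P10 and 4 to 9 were lower. Medians of these lists ran from -0.40 to -0.25, close to the -0.36 over all peaks standing for genes, so the lower values are not particular to them. AP-1 letters stood in 80 of 239 promoters more open in P10 than in P320 (33.5%), and in 74 of 203 (36.5%) in the 3 groups of low GC, where all promoters had 13.7%; of 96 promoters less open in P10, 8.33% held them. With the GC offset 314 promoter peaks (2.39%) were gained over P320 and 45 (0.342%) lost, against 218 (1.66%) and 89 (0.677%) without it.

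Fewer genes were less open in P10 than in P320. FLACC1 had 2.03 and 2.14 CPM in P10 and 9.21 and 9.07 CPM in P320 (-2.13), DNAJA4, a co-chaperone of the heat shock response, 3.75 and 2.27 CPM in P10 and 12.4 and 11.7 CPM in P320 (-2.0), and TMEM212 2.12 and 1.83 CPM in P10 and 7.38 and 6.43 CPM in P320 (-1.80). RPE65, a retinoid isomerase, had 3.40 and 2.66 CPM in P10 and 9.00 and 9.33 CPM in P320 (-1.60). These 4 were called without any 1 of the 4 libraries. With ZNF492 (-1.95) and NOMO1 (-1.57) these are the 6 largest falls where P10 or P320 averaged 2 CPM or more; ZNF492 and NOMO1 were not called when scaled on gene-start peaks (-1.61 and -1.24).

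P10 against T10 compares a short exposure with adaptation at the same dose, with the sort differing too. The GC trend differed as well. High-GC minus low-GC promoters gave 0.57 and 0.53 (log2) in the P10 libraries and -0.04 and -0.16 in those of T10. Calls over T10 are given without the GC offset, so whether they would hold with it is not shown. Against C, the call of GRHL1 ended with that offset (0.75). Over all peaks 15822 (15.1%) were gained and 18746 (17.8%) lost in P10, with 8870 gained without T10 replicate 2, and of peaks standing for genes 1296 (9.80%) were gained and 695 (5.25%) lost. Of genes described above, PDZK1IP1 exceeded T10 by 3.93, S100A12 by 3.22, SAA2 by 3.13, C3 by 2.93 and MEFV by 2.47; they were picked after their values were seen. In the lists, 3 of 18 NF-kB and cytokine genes (IL1B, IL32 and NFKBIA) were more open in P10 than in T10 and 0 less, and of 27 interferon genes 2 were more open (ISG20 and OAS2) and 3 less (IFIT1, IFIT3 and IRF3). Of 16 lineage genes WT1 (1.22), SOX17 (1.36) and MSLN (1.41) were more open in P10 than in T10 and KLK8 less (-1.15), and of 23 epithelial genes GRHL1, EHF, OVOL2, SPINT2, ST14 and DSP were more open and 0 less. Of 37 repair genes RAD51C (-1.15), BRIP1 (-1.22) and FANCM (-1.03), of homologous recombination and crosslink repair, and SHLD3 (-1.0), a subunit of shieldin, which blocks resection of breaks, were less open and 0 more. CD24, the gene of a marker on which T10 was sorted low, had 19.1 and 17.9 CPM in P10 and 9.33 and 7.35 CPM in T10 (1.16 ± 0.21, adjusted p = 0.00021, edgeR), and CD44 0.19, not called. AP-1 letters stood in 101 of 332 low-GC promoters more open in P10 than in T10 (30.4%) and in 76 of 586 less open (13.0%).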

How the data were processed

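ATAC-seq read counts over 105048 consensus peaks were taken as the authors deposited them, in a single table of whole-number counts with 20 libraries, 2 in each of 10 groups; 0 of its columns of values stayed without a sample. Peak positions are printed as the table gives them, on hg38; whether its starts count from 0 or from 1 is not given in the sources used here. Per the submitters' processing notes, the tools were DESeq2, MACS2, Bowtie2, Trim Galore, deepTools (3.1 and 3.5.1), SAMtools, HOMER (4.1) and Picard, with no stated role or order.

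Counts were fitted with edgeR 4.0.16 in R 4.3.3 (TMM factors, robust quasi-likelihood, all 10 groups, 10 residual degrees of freedom); filterByExpr removed 0 peaks. To be called gained or lost, a peak needed a p under 0.05 after Benjamini-Hochberg adjustment over all peaks and an absolute log2 fold change of 1 or more. CPM were computed here from counts and total counts in peaks scaled by TMM. An exact permutation test of 2 against 2 libraries cannot give a two-sided p below 0.333 and was not used. The fit was tested on simulated data. Gene starts, promoter sequences and GC content came from RefSeq (GRCh38.p14).

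Named were the 12 largest gains and 12 largest losses at genes (at least 2 CPM in the higher group, groups not overlapping), the 2 called members of lowest adjusted p in each of 25 lists, 8 genes in any case, 4 gained and 4 lost distal peaks, and the 6 genes with the most gained and most lost peaks; others, among them genes named from P10 against P320, from P10 against T10 and from the GC offset, were chosen after their values were seen. The comparison and the lists were chosen with earlier results of these data known. Alternatives covered scaling, offsets, the fit's samples, filters, call rules, DESeq2 1.42.0, the replicate block and leaving out each library. The other 8 samples in the labels were not analysed here. Of the 4 gained distal peaks, 1 is not reported here.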

Additional observations from a re-analysis of the deposited data

How the results depend on the processing

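Of the peak counts, P10 against C gave 9789 gained, but 5748 with TMM factors from gene-start peaks, 15404 with no fold minimum, 6521 at an adjusted p under 0.01, and 5046 to 12437 when each library was left out; of the 13428 lost, 7753 to 14472 were called with a library left out. Both lowest counts were those without C replicate 2. P10 against P320 gave 10168 gained and 4303 lost, 3938 to 5848 and 1787 to 2191 with a library left out, and 1609 lost with factors from gene-start peaks. P10 against T10 gave 15822 gained, and 8870 to 17183 with a library left out. With the GC offset the promoter peaks called against C were 499 gained in place of 1197 and 183 lost in place of 290, and those lost against P320 were 45 in place of 89. Over every peak nearest to a list gene, 9.94% were lost, against 0.413% of the peaks standing for list genes. Counts with a library left out rest on fewer libraries, and a lower adjusted p or no fold minimum changes the call rule itself; for the other settings the cause was not tested.

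The numbers in the labels did not tie P10 to other groups: same-numbered deviations of P10 correlated at -0.01 with those of C and at 0.00 with those of P320. Those of C correlated at 0.19 to 0.41 with the 7 groups adapted to the drug, which enter the shared estimate of the spread. With the replicate block P10 against C gave 11955 gained and 14399 lost, and it changed 0 calls among named genes. Against P320 the block gave 12454 and 5522, and against T10 18264 and 18879. The other settings (total-count scaling, factors from distal peaks, trended and window offsets, DESeq2, only P10 and C in the fit, stricter or no filter) kept both counts within 1.5 times. Of 52 named gains, 39 kept their call with factors from gene-start peaks, 44 with the window offset and 40 without C replicate 2. Under the GC offset 16 of the 34 with a promoter sequence kept it. Of 18 named losses, 14 kept it without C replicate 2. From each list, the 52 hold only the 2 called members of lowest adjusted p. Of the other list gains, FGFR1, ROR2, FJX1, SFRP1, JUND, TRIB3, ERN1, IL1B, TGFB1 and ERG lost their call with factors from gene-start peaks. FGFR3, IGF1R, INSR, BMP2, LTBP2, BAMBI, TEAD1 and JUNB kept it. In P10 against C, 0 of the 52 gains and 18 losses named changed direction under any setting run. The stricter filter removed the peak of 1 named loss. Depth limits peaks of few reads most, such as AMT and LRRK2.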
